A study of Mus musculus with 11 samples.

Results

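The 10 genes described here are markers of GABAergic interneurons: Gad1, Gad2, Lhx6, Pvalb, Sst, Npy, Reln, Vip, Cck and Calb2. They were chosen by gene symbol. All 10 were found among the 24391 gene symbols of the heterozygous round and the 24015 of the homozygous round, and all 10 passed the filter on low counts in both.

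The libraries came from 11 C57BL/6N mice of both sexes carrying 0, 1 or 2 copies of a deletion of 1b, a conserved non-coding interval of the sodium channel gene Scn1a that holds an alternative transcription start. Hippocampus was dissected from 1 hemisphere at postnatal day (P) 32, and RNA-seq was done in 2 rounds. In the homozygous round, 2 WT mice, both female, were set beside 2 1b-/- mice, 1 male and 1 female, with single-end reads of 50 bases. In the heterozygous round, 3 WT males were set beside 4 1b+/- mice, 3 males and 1 female, with paired-end reads of 150 bases. The deletion was made with Cas9 in C57BL/6N oocytes and bred as a single line, so it was present in every cell type of the mutants and in no cell of the WT mice. The 1b-/- animals analysed were those that lived to P32. Values are CPM, counts scaled to the total of the library, with TMM factors that set the libraries of a round on a common scale. Mutants were compared only with WT mice sequenced in the same round.

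GABAergic interneurons make the inhibitory transmitter GABA and set the timing and strength of pyramidal cell firing. Nav1.1, the channel encoded by Scn1a, is prominent in these cells, above all in fast-spiking cells that contain parvalbumin, and loss of it is known to weaken their firing in models of Dravet syndrome. Interneurons are told apart by where they arise and what they contain: cells of the medial ganglionic eminence (MGE) pass through an Lhx6-positive stage and become parvalbumin, somatostatin, Ivy or some neurogliaform cells, while cells of the caudal ganglionic eminence (CGE) give rise to VIP, CCK and many calretinin cells. In bulk tissue, fewer cells of a type and less RNA per cell cannot be told apart.

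Neuropeptide promoters are a textbook case of control by neuronal activity through the cAMP response element, whose full letters are TGACGTCA and whose short form is TGACG. Promoter sequences, 250 bases before to 50 after each annotated start, were taken from RefSeq (GRCm38.p6) and matched 9 of the 10 genes; Calb2 was not matched. The full element was found in 1 of these 9, Sst, and in 549 of all 27025 genes with a promoter sequence (2.03%). The short form was read on both strands and counted also where it forms part of the full one. It was found in 4 of the 9 (Gad2, Cck, Vip and Sst) and in 23.0% of all genes with a promoter sequence. These 4 stretches of 60 bases are shown because they include Gad2 and Cck, the members whose level passed the test in 1b-/- mice, and Sst and Vip, which did not; capitals mark the element, written 5′ to 3′ on the strand of the gene.
Gad2 (chr2:22622267-22622326, plus strand): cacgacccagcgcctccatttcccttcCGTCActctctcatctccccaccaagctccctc
Cck (chr9:121495708-121495767, minus strand): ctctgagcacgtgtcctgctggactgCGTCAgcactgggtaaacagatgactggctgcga
Vip (chr10:5639113-5639172, plus strand): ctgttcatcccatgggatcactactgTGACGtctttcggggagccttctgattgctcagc
Sst (chr16:23890859-23890918, minus strand): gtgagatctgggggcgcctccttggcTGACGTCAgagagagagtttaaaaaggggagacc
Counted from the start, with -1 the base before it, the last base of the element was at -41 in Sst, -43 in Cck, -29 in Gad2 and -75 in Vip. A match of letters is a description of the sequence and not a measured site.

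Scn1a, the targeted gene, stood at 171, 113 and 123 CPM in the 3 WT mice and at 91.1, 83.3, 96.6 and 119 CPM in the 4 1b+/- mice. In the homozygous round it stood at 134 and 173 CPM in WT and at 26.3 and 16.7 CPM in 1b-/- mice. The 1b-/- level was 14.1% of WT (log2 fold change -2.83 ± 0.27 SE, adjusted p = 0.0211), and the 1b+/- level was 72.0% of WT (log2 fold change -0.47 ± 0.15, adjusted p = 0.303), with 1 1b+/- library inside the WT range. The call in 1b-/- mice was lost without WT replicate 1 (adjusted p = 0.101) or WT replicate 2 (0.0601), and the log2 fold change in 1b+/- mice was -0.27 without WT replicate 1 of that round (adjusted p = 0.316). Library totals ran from 20667122 to 36145161 counts, so that members had between 138 and 16176 counts per library and variation among mice, rather than counting error, set the precision. Across genes, mice of a group varied by 9.13% (common biological coefficient of variation) in the round of 1b+/- mice and by 22.9% in that of 1b-/- mice.

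Both WT libraries of the homozygous round stood apart from the 9 others in the regional identity of their RNA. The summed level of 14 genes of striatal medium spiny neurons was 8308 and 3412 CPM in these libraries, against 250 and 341 CPM in 1b-/- mice, 243 to 420 CPM in WT and 199 to 245 CPM in 1b+/- mice of the other round. Genes of basal forebrain cholinergic neurons summed to 50.5 to 106 CPM in them and to 4.32 to 23.5 CPM in the other libraries. Genes of dentate granule cells were low, with a sum of 48.2 and 64.1 CPM against 144 to 242 CPM elsewhere, and genes of CA pyramidal cells summed to 359 and 375 CPM against 675 to 1106 CPM. The label of hippocampus therefore held by dentate and CA markers in 9 libraries, while in these 2 striatal genes were high and hippocampal genes low. Striatum is built mainly of GABAergic neurons and has its own interneurons, so every 1b-/- against WT difference below is to be read with this fact, and its part in them was not tested. Within the heterozygous round, WT replicate 1 carried the highest sum of 8 thalamic genes (565 CPM) and 1b+/- replicate 4 the next (420 CPM), against 140 to 281 CPM in the other libraries. Genes of neocortex summed to 392 CPM in 1b-/- replicate 1 and 134 CPM in 1b-/- replicate 2, against 251 to 370 CPM in all other libraries. The part of this in the 1b-/- values was not tested.

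**Figure D1:**
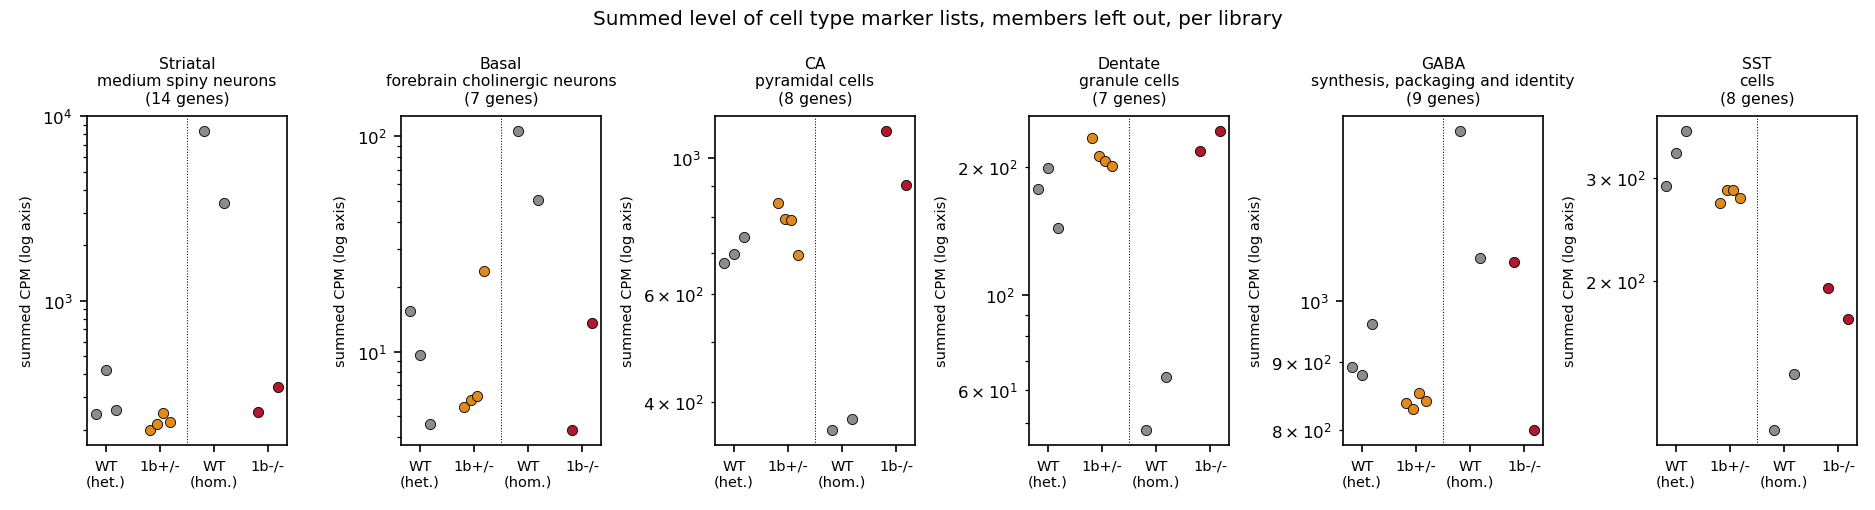
Summed CPM of 6 marker lists in each library, on log axes, with the 10 members left out of the lists; each point is 1 mouse, and the dotted line parts the heterozygous round (left) from the homozygous round (right). The 2 WT points of the homozygous round lie at 8308 and 3412 CPM for striatal genes, above all other libraries, and below all others for dentate and CA genes.

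At P32, the glutamate decarboxylase genes Gad1 and Gad2 were lower in mutants without overlap in both rounds. They encode the enzymes that make GABA, GAD67 and GAD65, and mark almost all GABAergic neurons. Gad2 was lower in all 4 1b+/- mice than in all 3 WT mice, without reaching an adjusted p under 0.05, and fell in 1b-/- mice to 48.8% of WT. Gad1 lay in the same order in both rounds with smaller differences. In mm9, Gad2 is annotated on the plus strand of chromosome 2 from 22477725 to 22549394 and Gad1 on the same strand from 70391129 to 70440071. Scn1a lies on the minus strand of the same chromosome, from 66108838 to 66278897, and Lhx6 is the third member on it.

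Gad2 stood at 208, 223 and 235 CPM in WT and at 175, 166, 200.02 and 189.6 CPM in 1b+/- mice. No 1b+/- library reached the lowest WT library. The group means were 222 ± 13.8 (SD, n = 3) and 183 ± 15.1 CPM (SD, n = 4), a level of 82.2% of WT (log2 fold change -0.28 ± 0.07 SE, adjusted p = 0.180 by edgeR's quasi-likelihood test). The call turned on 1 WT library and on the test: without WT replicate 1 the adjusted p was 0.0482, and by edgeR's likelihood ratio test and DESeq2 it was 0.0344 and 0.0122. Among the 4 mice of the homozygous round, Gad2 stood at 356 and 313 CPM in WT and at 147 and 179.6 CPM in 1b-/- mice. The groups did not overlap (log2 fold change -1.03 ± 0.16, adjusted p = 0.0386). That call was lost without 1b-/- replicate 1, without WT replicate 1 and without WT replicate 2, fits that leave 1 library in a group. It was also lost with sex as a covariate, nearly the same fit as that without 1b-/- replicate 1, the only male of the round. The log2 fold change stayed between -1.18 and -0.90 under every alternative.

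Gad1 stood at 326, 321 and 356 CPM in WT and at 311, 287, 319 and 313 CPM in 1b+/- mice. The groups did not overlap, but the highest 1b+/- library and the lowest WT library were 319 and 321 CPM. The level was 92.0% of WT (log2 fold change -0.12 ± 0.05, adjusted p = 0.408). Its levels beside the 1b-/- mice were 469 and 412 CPM in WT and 288 and 258 CPM in 1b-/- mice, again without overlap (62.0% of WT, log2 fold change -0.69 ± 0.14, adjusted p = 0.0664). By the likelihood ratio test, DESeq2 and the fit of all 11 libraries the adjusted p was 0.00542, 0.000594 and 0.000342.

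The pair did not keep a fixed proportion. Counts of Gad2 were 63.8%, 69.5% and 66.1% of those of Gad1 in WT mice and 56.3%, 57.7%, 62.8% and 60.5% in 1b+/- mice, with no overlap. They were 75.9% and 76.1% in the WT libraries of the homozygous round and 51.2% and 69.5% in 1b-/- mice. These shares are set within a library and so do not depend on the scaling between libraries; their difference was not tested.

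Slc32a1, which encodes the transporter that loads GABA into vesicles, is no member but belongs to the same step. It stood at 69.3, 71.9 and 82.4 CPM in WT and at 63.0, 58.0, 65.1 and 59.99 CPM in 1b+/- mice, without overlap (82.6% of WT, log2 fold change -0.28 ± 0.07, adjusted p = 0.183). Its WT libraries in the homozygous round were far apart at 219 and 108 CPM, both above the 1b-/- libraries at 83.9 and 98.9 CPM (adjusted p = 0.196).

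Striatal genes were for the most part also lower in mutants in both rounds. In the WT libraries of the homozygous round they were high by the sums given above, and all 14 tested striatal genes were lower in 1b-/- mice (median log2 fold change -4.26). In the heterozygous round, 12 of 13 tested were lower in 1b+/- mice, with a median of -0.49 over the 13. Of these, 7 were lower at p under 0.05, beside 5.95% of all genes. The sums of the 14 striatal genes overlapped between the groups of that round. They were 243, 420 and 255 CPM in WT and 199, 214, 245 and 220 CPM in 1b+/- mice. WT replicate 2, with the highest sum, had the lowest Gad1 of the WT mice. WT replicate 3 had the highest Gad1, Gad2 and Slc32a1. The part of striatal genes in the lower Gad1, Gad2 and Slc32a1 was not tested.

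**Figure D2:**
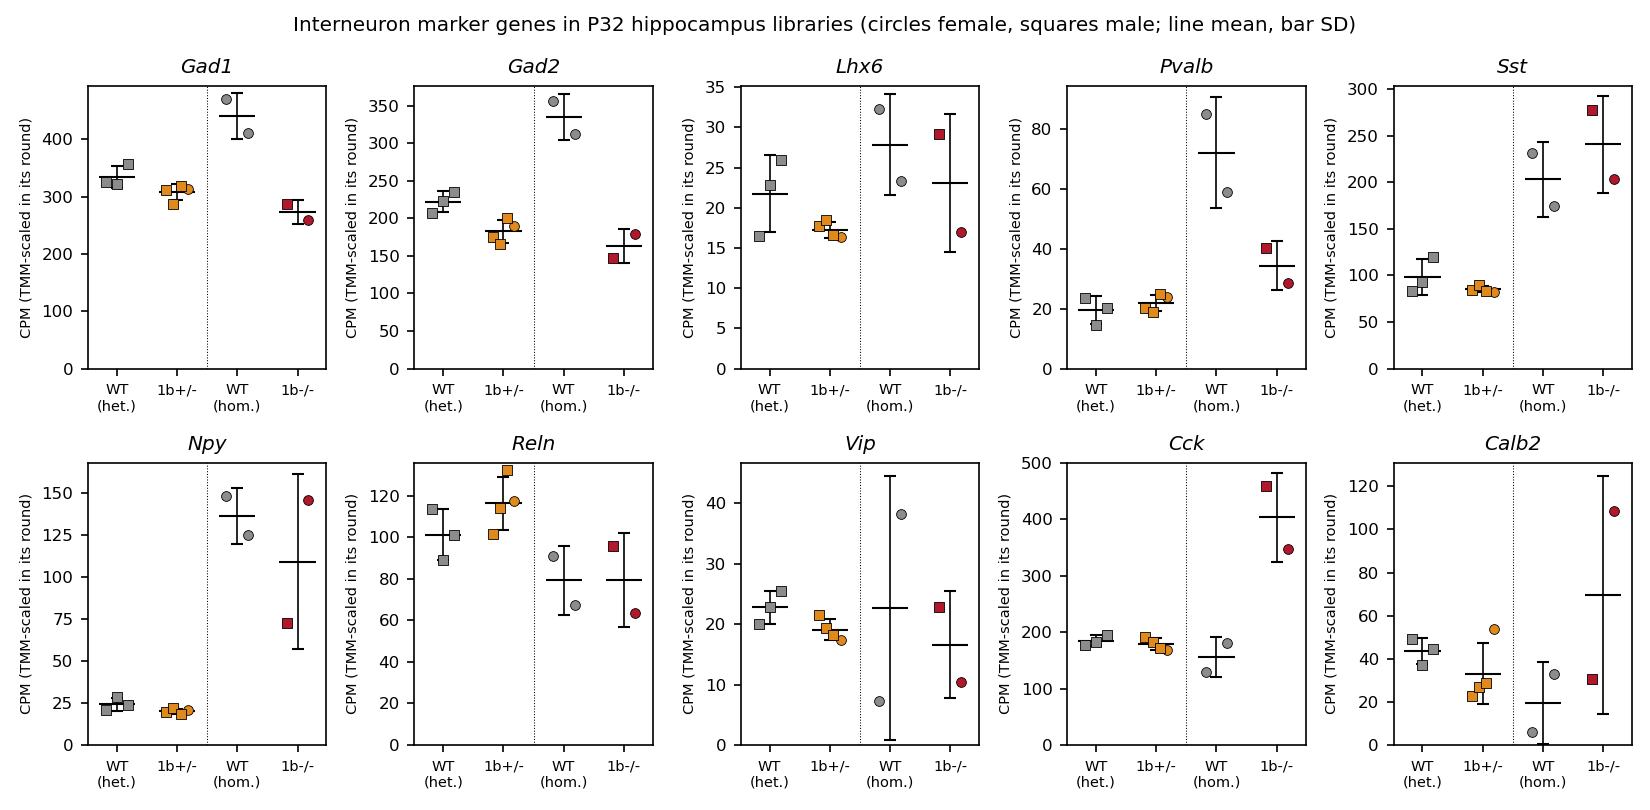
TMM-scaled CPM of each of the 10 marker genes in every library (circles female, squares male; line, group mean; bar, SD); the left side of each panel is the heterozygous round and the right side the homozygous round. Gad1 and Gad2 lie lower in mutants than in WT in both rounds without overlap, Pvalb is lower and Cck higher in 1b-/- libraries, and the other genes overlap between groups.

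Lhx6, the transcription factor that sets the fate of MGE-derived cells, stood at 16.5, 22.9 and 25.9 CPM in WT and at 17.7, 18.5, 16.6 and 16.4 CPM in 1b+/- mice. WT replicate 1 lay among the 1b+/- libraries, and the other WT libraries lay above all of them. The level was 79.5% of WT (log2 fold change -0.33 ± 0.13, adjusted p = 0.392), and without that WT library the log2 fold change was -0.50 and the adjusted p 0.0164. Lhx6 in the homozygous round stood at 32.3 and 23.4 CPM in WT and at 29.1 and 17.04 CPM in 1b-/- mice, with overlap (log2 fold change -0.27 ± 0.31, adjusted p = 0.610).

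Pvalb encodes parvalbumin, the calcium buffer of fast-spiking basket and axo-axonic cells, and lies on chromosome 15 from 78021544 to 78036830 (mm9, minus strand). It stood at 23.7, 14.6 and 20.3 CPM in WT and at 20.3, 19.0, 24.8 and 23.8 CPM in 1b+/- mice. The ranges overlapped, and Pvalb was the member of the MGE group whose mean was higher in 1b+/- mice (112% of WT, log2 fold change 0.17 ± 0.16, adjusted p = 0.726). Its 95% interval, from -0.18 to 0.52, allowed changes in either direction. Pvalb in the homozygous round stood at 85.3 and 59.2 CPM in WT and at 40.2 and 28.6 CPM in 1b-/- mice. The groups did not overlap and the level was 47.6% of WT, but the test was not passed (log2 fold change -1.07 ± 0.25, adjusted p = 0.0815). The striatal sums of these WT libraries were 8308 and 3412 CPM, in the same order as their Pvalb, and their part in the difference was not tested. Of the fits in which both 1b-/- mice carried the comparison, some passed the test. These were the likelihood ratio test (adjusted p = 0.00466), DESeq2 (0.00178), the fit of all 11 libraries (0.00654) and that without the low-count filter (0.0496). Because 1b-/- replicate 1 is the only male of the round, a term for sex leaves 1b-/- replicate 2 to carry the comparison. The log2 fold change was -1.34 both with that term and without 1b-/- replicate 1. Per Gad1 count, Pvalb was at 18.2% and 14.4% in these WT libraries and at 14.0% and 11.1% in 1b-/- mice.

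Sst encodes somatostatin, the peptide of dendrite-targeting cells of stratum oriens and the hilus. It stood at 82.9, 92.7 and 119 CPM in WT and at 84.8, 89.9, 83.7 and 82.2 CPM in 1b+/- mice. The 1b+/- libraries lay close together at the low end of the WT range (86.7% of WT, log2 fold change -0.21 ± 0.11, adjusted p = 0.497). Sst in the homozygous round stood at 232 and 175 CPM in WT and at 278 and 204 CPM in 1b-/- mice, with overlap (log2 fold change 0.24 ± 0.22, adjusted p = 0.517). Relative to Gad1, Sst counts were 49.4% and 42.5% in WT and 96.6% and 78.9% in 1b-/- mice, while both groups of the heterozygous round lay between 25.5% and 33.5%.

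Npy, the gene of neuropeptide Y, marks neurogliaform, Ivy and many somatostatin cells, and Reln, the gene of the secreted protein reelin, marks neurogliaform cells, part of the somatostatin cells and the Cajal-Retzius cells of the molecular layers. Npy stood at 20.6, 28.4 and 23.8 CPM in WT and at 19.6, 21.97, 18.5 and 20.7 CPM in 1b+/- mice, with overlap through WT replicate 1 (83.2% of WT, log2 fold change -0.26 ± 0.11, adjusted p = 0.393). Among the 4 mice of the homozygous round, Npy stood at 148 and 125 CPM in WT and at 72.4 and 146 CPM in 1b-/- mice, and the 1b-/- replicates differed more from each other than the group means did (adjusted p = 0.579). Npy is also known to appear in granule cells after seizures, which a bulk value does not separate from interneurons.

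Reln stood at 114, 89.1 and 101 CPM in WT and at 101, 114, 132 and 117 CPM in 1b+/- mice, with overlap (115% of WT, log2 fold change 0.20 ± 0.10, adjusted p = 0.483). Reln in the homozygous round stood at 90.9 and 67.5 CPM in WT and at 95.5 and 63.4 CPM in 1b-/- mice. The log2 fold change was 0.01, with a 95% interval from -0.63 to 0.64.

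Vip, a marker of CGE-derived cells, encodes vasoactive intestinal peptide, found in cells that mostly inhibit other interneurons. It stood at 19.9, 22.8 and 25.5 CPM in WT and at 21.4, 19.4, 18.3 and 17.3 CPM in 1b+/- mice, with overlap (84.0% of WT, log2 fold change -0.25 ± 0.10, adjusted p = 0.378). Its replicates in the homozygous round were far apart, at 7.27 and 38.2 CPM in WT and at 22.9 and 10.4 CPM in 1b-/- mice. The 95% interval of that log2 fold change ran from -2.45 to 1.55, so a change of the size of that of Gad2 was not detectable for Vip with these 4 libraries.

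Cck encodes cholecystokinin, the peptide of a class of basket cells, and is also transcribed by hippocampal pyramidal cells and cortical projection neurons. The gene lies on chromosome 9 from 121398943 to 121404807 (mm9, minus strand). It stood at 177, 182 and 195 CPM in WT and at 191, 182, 172 and 168 CPM in 1b+/- mice. The groups overlapped fully, and Cck was the member with the narrowest interval, from -0.17 to 0.07 around a log2 fold change of -0.05 (adjusted p = 0.773). In the homozygous round, it stood at 130.0 and 180.1 CPM in WT and at 459 and 348 CPM in 1b-/- mice. It rose 2.60-fold (log2 fold change 1.38 ± 0.23, adjusted p = 0.0469). The call was lost without WT replicate 1 (adjusted p = 0.121) and without WT replicate 2 (0.0744), at log2 fold changes of 1.17 and 1.63. Genes of CA pyramidal cells, which transcribe Cck, moved with it: all 8 were higher in 1b-/- mice with a median log2 fold change of 1.88. Of the 8, 4 passed the test, beside 2.06% of all genes called higher. Their part in the rise of Cck was not tested.

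Calb2 encodes calretinin, found in interneuron-specific cells, in mossy cells of the mouse hilus, in Cajal-Retzius cells and in parts of the thalamus. It stood at 49.3, 37.3 and 44.4 CPM in WT and at 22.6, 27.0, 29.0 and 53.9 CPM in 1b+/- mice. The 3 male 1b+/- libraries lay below all WT libraries and the female library, replicate 4, above them, so that the groups overlapped (log2 fold change -0.40 ± 0.26, adjusted p = 0.606). With sex as a covariate, which leaves the males to carry the comparison, the log2 fold change was -0.74 (adjusted p = 0.0741). The libraries highest in Calb2, WT replicate 1 and 1b+/- replicate 4, were also the highest in thalamic genes, by the sums given above, and the part of this was not tested. In the homozygous round, Calb2 stood at 6.23 and 32.9 CPM in WT and at 30.5 and 109 CPM in 1b-/- mice, with overlap and an interval from -0.48 to 4.14.

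Counted over the members, no gene of 10 passed the test in 1b+/- mice by edgeR's quasi-likelihood test, as none of 14630 genes did (0%). At an unadjusted p under 0.05 there were 5 members, Gad1, Gad2, Lhx6, Npy and Vip, all lower in 1b+/- mice, beside 11.3% of all genes in either direction and 5.95% lower. The likelihood ratio test and DESeq2 each called 1 member, Gad2, beside 191 and 245 genes overall. Groups did not overlap for 2 members that were lower, where 6.25% of all genes did so, and for no member that was higher, where 4.69% did. The median log2 fold change of the 10 was -0.23, against 0.00073 over all genes tested. Members were measured in the same 7 libraries and are not independent of each other.

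In 1b-/- mice, 2 of 10 members passed the test, beside 3.58% of 14838 genes: Gad2 among the 1.52% of genes called lower and Cck among the 2.06% called higher. At an unadjusted p under 0.05 there were 4 (Gad1, Gad2, Pvalb and Cck) beside 26.4% of all genes, a share of the members not far above that background. Groups did not overlap for 3 lower members and 1 higher one, where 30.2% and 29.5% of all genes did so, so that non-overlap alone set the members apart from other genes in neither direction. The median of the 10 was -0.30, against -0.0013 over all genes.

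**Figure D3:**
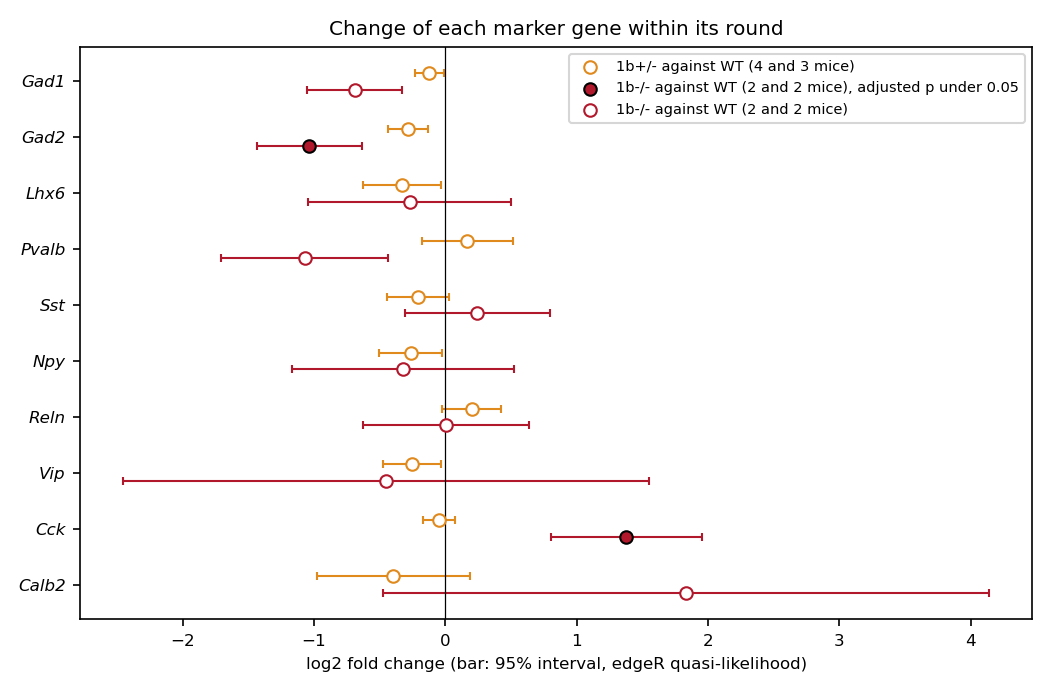
Log2 fold change of each marker gene with its 95% interval in 1b+/- mice (orange) and 1b-/- mice (red) against the WT mice of the same round; filled points have an adjusted p under 0.05. Only Gad2 and Cck are filled, both in 1b-/- mice, and the intervals of Vip and Calb2 in that comparison span several log2 units.

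The change itself differed between the genotypes for 4 of the 10 members, where 27.3% of 14905 genes did so in a fit of all 11 libraries. The log2 fold change in 1b-/- mice minus that in 1b+/- mice was -0.58 ± 0.12 for Gad1 (adjusted p = 0.00547), -0.76 ± 0.15 for Gad2 (0.00429), -1.25 ± 0.31 for Pvalb (0.0147) and 1.42 ± 0.20 for Cck (0.000985). For Pvalb the call was lost without 1b-/- replicate 2 (adjusted p = 0.0511). For Calb2 the difference was 2.21 ± 0.87 (adjusted p = 0.0847), and it passed the test by the likelihood ratio test (0.0443), with sex as a covariate (0.0178), without 1b-/- replicate 1 (0.0278) and without WT replicate 2 of the homozygous round (0.0130). For Lhx6, Sst, Npy, Reln and Vip it lay between -0.20 and 0.44 with adjusted p between 0.189 and 0.916. Genotype, read type, sex balance and the regional make-up of the WT libraries changed together between the rounds and cannot be told apart in this contrast.

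The level of each gene per kilobase of its annotated exons allows the members to be ordered. In WT mice of the heterozygous round, on this CPM per kilobase scale, Cck was highest at 218 ± 11.2 (SD, n = 3), followed by Sst at 164 ± 31.6, Gad1 at 43.8 ± 2.50, Npy at 42.9 ± 6.99, Gad2 at 37.8 ± 2.35, Calb2 at 25.1 ± 3.45, Pvalb at 18.8 ± 4.39, Vip at 14.9 ± 1.82, Reln at 5.10 ± 0.62 and Lhx6 at 4.59 ± 1.01. Ranges over the 3 mice were apart between Cck and Sst, Sst and Gad1, Gad2 and Calb2, and Vip and Reln, and overlapped for the other 5 pairs of neighbours. The peptide genes Cck and Sst thus stood above the enzymes of GABA synthesis, and the transcription factor Lhx6 lowest. In 1b+/- mice the order was the same except that Pvalb (21.1 ± 2.67, n = 4) came before Calb2 (19.0 ± 8.09), with overlap between them.

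The order differed in the WT libraries of the homozygous round, where Sst (292 and 387 CPM per kilobase, lowest and highest) and Npy (220.1 and 261) came before Cck (153 and 212). In 1b-/- mice Cck was again first (410.1 and 542), then Sst (340.5 and 464) and Npy (128 and 257). Npy set the rounds apart most: scaled over all 11 libraries it lay between 19.0 and 29.2 CPM in the 7 mice of the heterozygous round and between 71.4 and 145 CPM in the 4 of the homozygous round. The rounds differed in read length and in pairing of reads, and for this gene of 566 exon bases the part of that was not tested.

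**Figure D4:**
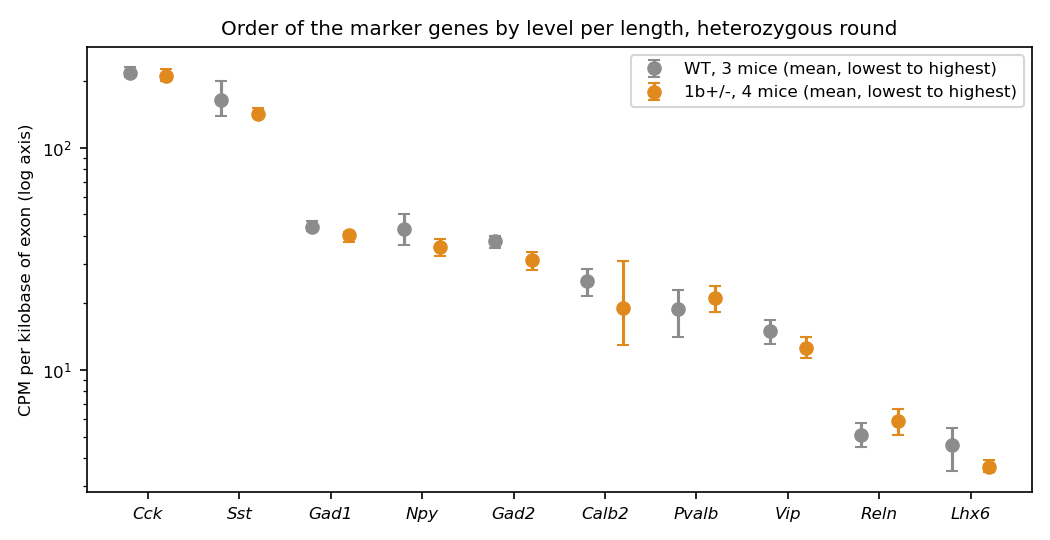
CPM per kilobase of annotated exon, on a log axis, of the 10 marker genes in the heterozygous round (grey, 3 WT mice; orange, 4 1b+/- mice; points are means and bars run from the lowest to the highest mouse). Cck and Sst are highest at 218 and 164 in WT, and Reln and Lhx6 lowest at 5.10 and 4.59.

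The 10 members were set beside 50 other genes of 6 interneuron lists, chosen by class. In 1b+/- mice, 37 of the 50 were lower and 13 higher, with a median log2 fold change of -0.08; none passed the test, and 11 lower and 2 higher genes had an unadjusted p under 0.05, beside 11.3% of all genes in either direction and 5.95% lower. Of the 60 genes with the members, the number called went from 0 to 4 by the likelihood ratio test, 6 by DESeq2, 2 without the low-count filter and 8 without WT replicate 1. In 1b-/- mice, 25 were lower and 25 higher, with a median of -0.02, and 6 passed the test, beside 3.58% of all genes: Tac1 and Dlx6 fell and Htr3a, Npas1, Nos1 and Npy2r rose. With the members, 8 of the 60 were called in 1b-/- mice, 0 without WT replicate 1 of that round and 3 without WT replicate 2 (Tac1, Htr3a and Npy2r). Lower and higher genes were thus equal in number in 1b-/- mice, and in 1b+/- mice the lower ones were the more frequent.

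By class, most genes of GABA synthesis and identity were lower in both rounds. In 1b+/- mice, 8 of its 9 genes other than Gad1 and Gad2 were lower, 1 of them (Slc32a1) at p under 0.05, beside 5.95% of all genes. In 1b-/- animals 7 of 9 were lower, 5 at p under 0.05 beside 12.8% of all genes that were lower at that p. Dlx6, a transcription factor of ventral forebrain neurons including those of striatum, fell from 19.4 and 12.7 CPM to 2.47 and 3.98 CPM (log2 fold change -2.31, adjusted p = 0.0372); the call was lost without WT replicate 1 (adjusted p = 0.120) or WT replicate 2 (0.0699). Dlx6os1, its antisense neighbour, was at 15.8 and 9.71 CPM against 30.7 and 31.2 CPM (adjusted p = 0.0646).

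Genes of the MGE lineage other than Lhx6 were lower for 5 of 6 in 1b+/- mice. Satb1, a chromatin organizer of MGE-derived cells that excitatory neurons also transcribe, was the exception, at 151, 139, 134 and 144 CPM against 116, 82.3 and 118 CPM in WT, without overlap (log2 fold change 0.43, adjusted p = 0.223). Elfn1, a synaptic adhesion protein of somatostatin cells, was at 30.9, 32.1, 28.9 and 33.8 CPM against 35.3, 38.5 and 39.2 CPM (log2 fold change -0.26, adjusted p = 0.184). Of the 6, 3 were lower in 1b-/- mice and none passed the test; Nkx2-1, which acts upstream of Lhx6 and stays on in striatal interneurons, was at 0.738 and 1.69 CPM against 8.40 and 3.23 CPM in WT (adjusted p = 0.111), and Sox6, which acts downstream of Lhx6, at 22.2 and 17.3 CPM against 24.96 and 31.0 CPM (adjusted p = 0.190).

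In the list of PV cells without Pvalb, 5 of 11 genes were lower in 1b+/- mice and 6 higher, with a median of 0.02. Tac1, the gene of substance P, which PV cells and striatal projection neurons transcribe, had the smallest p at 4.92, 5.46, 4.82 and 6.58 CPM against 8.03, 12.2 and 11.1 CPM in WT (log2 fold change -0.93, adjusted p = 0.0777); it was called by DESeq2 (adjusted p = 8.9e-05), the likelihood ratio test (0.000136), without the low-count filter (0.0484) and without WT replicate 1 (0.00629). Tac1 fell in 1b-/- mice from 127 and 78.8 CPM to 6.05 and 3.57 CPM (log2 fold change -4.41, adjusted p = 0.0207). Without WT replicate 1 the log2 fold change was -4.03. In the same comparison all 14 striatal genes were lower and 10 passed the test, beside 1.52% of all genes called lower. Syt2, a calcium sensor of PV cell terminals, was at 14.0 and 7.61 CPM against 38.6 and 21.9 CPM (log2 fold change -1.48, adjusted p = 0.102). Rbp4, the retinol carrier, was at 5.19 to 6.57 CPM in 1b+/- mice against 4.26 to 5.62 CPM in WT (adjusted p = 0.550).

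The list of SST cells lay the other way in 1b-/- mice than in 1b+/- mice. Without Sst, 6 of its 8 genes were lower in 1b+/- mice, with a median of -0.27 over the 8. Of these, 4 were lower at p under 0.05, beside 5.95% of all genes. The summed level of the list was 272 to 287 CPM against 292 to 361 CPM in WT. Among 1b-/- mice 6 of 8 were higher, with a median of 0.54 and a sum of 172 and 195 CPM against 111 and 139 CPM. The difference between the genotypes passed the test for 4 of the 8, all higher, beside 27.3% of all genes in either direction and 14.3% higher. Grin3a, an NMDA receptor subunit, was at 72.1, 70.5, 80.5 and 81.3 CPM in 1b+/- mice against 86.9, 90.4 and 106 CPM in WT (log2 fold change -0.31, adjusted p = 0.203). Nos1, the neuronal nitric oxide synthase of Ivy cells and of some somatostatin cells, rose in 1b-/- mice from 26.3 and 21.2 CPM to 50.7 and 49.7 CPM (log2 fold change 1.08, adjusted p = 0.0334), a call lost when any 1 of the 4 libraries was left out (adjusted p from 0.0503 to 0.101). Crhbp, the binding protein of corticotropin-releasing hormone, was at 16.6 and 19.9 CPM against 9.52 and 12.2 CPM (log2 fold change 0.75, adjusted p = 0.103). Hippocampal markers were higher in the same libraries, and their part was not tested.

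For the CGE list without Vip, Cck and Calb2, 10 of 12 genes were lower in 1b+/- mice, where 7271 of all 14630 were. Of the 12, 4 were lower at p under 0.05, beside 5.95% of all genes. Nr2f2, a nuclear receptor of CGE-derived cells, was at 32.9, 43.7, 43.9 and 46.1 CPM against 59.0, 77.3 and 89.0 CPM in WT (log2 fold change -0.85, adjusted p = 0.0777), a larger difference on the log2 scale than that of any member in this comparison. Nr2f2 was called by DESeq2 (adjusted p = 1.7e-06), the likelihood ratio test (2.1e-05), without the low-count filter (0.0467) and without WT replicate 1 (0.00543). Htr3a, the serotonin receptor that defines most CGE-derived interneurons, was at 7.59, 7.77, 7.99 and 7.04 CPM against 8.77, 10.1 and 12.03 CPM, without overlap (log2 fold change -0.44, adjusted p = 0.221). In 1b-/- mice, 8 of 12 were higher, where 7406 of all 14838 genes were. At an unadjusted p under 0.05, 3 of the 12 were higher and 2 lower, beside 2016 and 1906 of all genes. The summed level of the 12 was nevertheless lower, at 259 and 264 CPM against 319 and 301 CPM in WT. Htr3a rose from 1.90 and 3.04 CPM to 13.4 and 12.4 CPM (log2 fold change 2.39, adjusted p = 0.0283). Npas1, a transcription factor of CGE-derived cells, rose from 7.09 and 8.37 CPM to 16.3 and 16.1 CPM (log2 fold change 1.07, adjusted p = 0.0473). Across the heterozygous round Htr3a was at 7.04 to 12.03 CPM and Npas1 at 10.8 to 13.97 CPM. The WT libraries of the homozygous round were thus low in both genes relative to all other libraries. The part of their regional make-up was not tested. The rounds differed in read type and were scaled apart, and the part of that was not tested either. Nos1, called in the same comparison, was at 136 to 179 CPM across the heterozygous round, above both genotypes of the homozygous round. The call of Npas1 was lost with filterByExpr (adjusted p = 0.0502), with sex as a covariate (0.0804) and when any 1 library was left out (0.0823 to 0.119), and that of Htr3a without WT replicate 1 (0.101).

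For neurogliaform and Ivy cells, 5 of 6 genes other than Npy and Reln were lower in 1b+/- mice and none had a p under 0.05. In 1b-/- mice 4 of 6 were higher, among them Nos1 and Npy2r, a receptor of neuropeptide Y that pyramidal and granule cells also transcribe, which rose from 5.46 and 5.10 CPM to 39.0 and 47.8 CPM (log2 fold change 3.04, adjusted p = 0.0190; 0.101 without WT replicate 1). Across the heterozygous round it was at 37.2 to 56.6 CPM. The WT libraries of the homozygous round were thus low in Npy2r relative to all other libraries, as they were in dentate and CA genes. Here too the rounds differed in read type and were scaled apart.

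**Figure D5:**
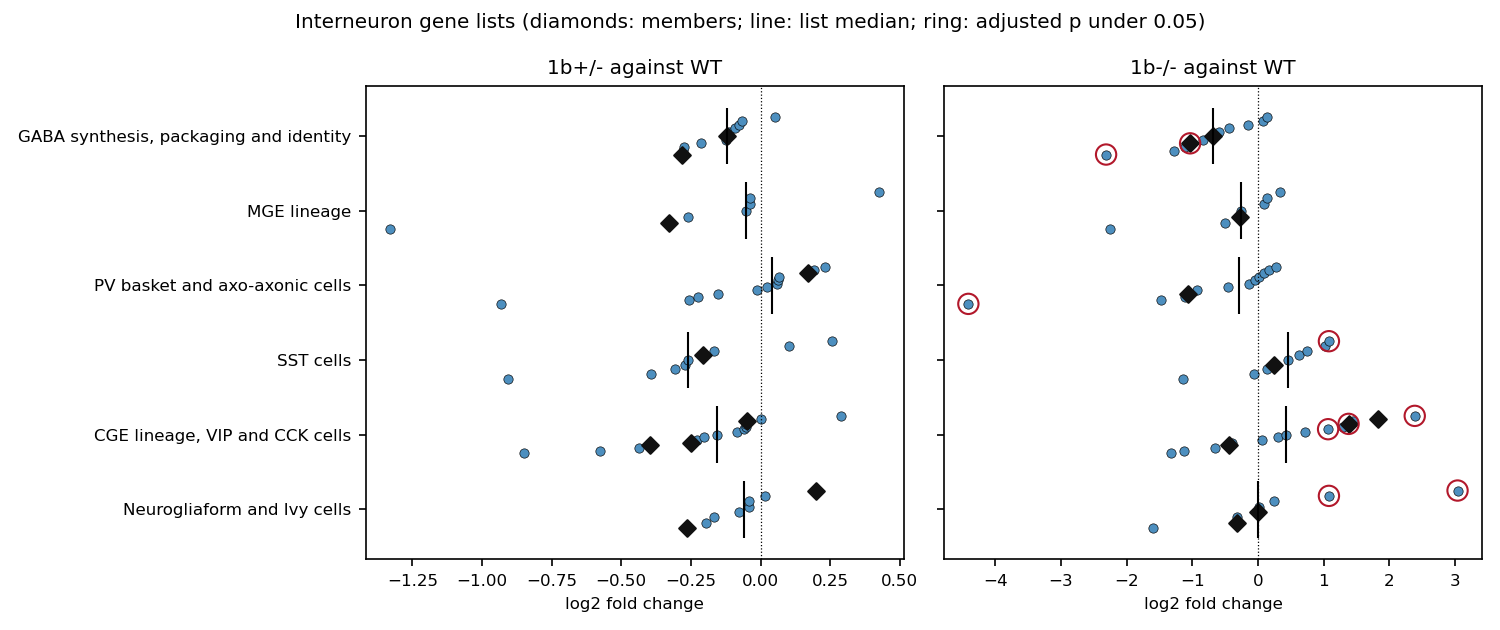
Log2 fold change of every gene of the 6 interneuron lists in 1b+/- mice (left) and 1b-/- mice (right) against WT; diamonds are the 10 members, the vertical bar is the median of the list with its members, and rings mark an adjusted p under 0.05. No gene is ringed on the left; on the right Gad2, Dlx6 and Tac1 are ringed on the lower side and Cck, Htr3a, Npas1, Nos1 (in both lists that hold it) and Npy2r on the higher side.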

How the data were processed

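Raw counts per gene were deposited, 1 table per round. The authors made these counts from stranded mRNA libraries, with alignment to mm9 by STAR 2.7.2 and counting by featureCounts, and did not normalize them. The strand setting of the counting is not given in the sources used here; Gad1 and Reln have annotated genes on the opposite strand, so their counts are uncertain to that extent. The sample labels name the tables the other way round, so columns were matched by library name; they give the age as adult. Sex and genotype are the labels' own. Each table holds 27 symbols turned into dates, none a member; no column was left unused. Nothing says whether replicates shared a litter, and p-values measure the spread between these mice.

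Counts were analysed in edgeR 4.0.16 (R 4.3.3): at least 1 CPM in at least 1 library, TMM factors, glmQLFit and glmQLFTest with genotype as the only term, Benjamini-Hochberg adjustment over all genes tested and a threshold of 0.05. Standard errors are the size of the log2 fold change over the root of the F statistic. The difference between genotypes used all 11 libraries. The code was tested on simulated counts. Levels per length used mm9 exons (GENCODE vM1). Alternatives were the likelihood ratio test, DESeq2 1.42.0, RLE scaling, a filterByExpr or no low-count filter, a term for sex, a joint fit of all 11 libraries and leaving out each library. At 1 CPM the smallest library has 20.7 reads. The genes named are the 10 members, Scn1a, Slc32a1 and, of each list, the 2 genes with the smallest p in each comparison, of which those of the interneuron lists are described. Some genes that the rules select are not reported here. Genes of the regional and Cajal-Retzius lists are given as sums and counts, and singly only where an alternative changed their sign. Members and lists were chosen with earlier results of these data known.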

Additional observations from a re-analysis of the deposited data

Results flagged for a closer look

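The change differed between 1b-/- and 1b+/- mice, each against the WT mice of its round, for 4 members by the test of the difference in a fit of all 11 libraries. The log2 fold change in 1b-/- mice minus that in 1b+/- mice was -0.58 for Gad1, -0.76 for Gad2, -1.25 for Pvalb and 1.42 for Cck. For Pvalb the changes had opposite signs in the 2 genotypes (0.17 in 1b+/- and -1.07 in 1b-/- mice), and for Cck as well (-0.05 and 1.38). The striatal sum of the WT libraries of the homozygous round was 8308 CPM in replicate 1 and 3412 CPM in replicate 2. Gad1, Gad2 and Pvalb were higher in that replicate 1 than in replicate 2, and Cck was lower (130 against 180 CPM). The part of the striatal RNA in the 4 differences was not tested. Among the 4 1b+/- mice, no library lay far enough from the others to be singled out for any member; the largest gap was that of Calb2 in replicate 4, where the gap was 0.796 of the range of the group.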

How the results depend on the processing

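For the log2 fold changes of the 10 members, 136 of 140 alternatives kept direction and side of the threshold in 1b+/- mice and 4 gained a call; in 1b-/- mice 86 of 110 kept both, 9 gained and 6 lost a call and 9 reversed; for the difference between genotypes, 132 of 150 kept both, 5 gained and 1 lost a call and 12 reversed. Genes called in 1b+/- mice went from 0 to 191 (likelihood ratio test), 245 (DESeq2) and 44 (no filter), and from 0 to 421 with 1 library left out, the most without WT replicate 1; members called went from 0 to 1 by each of the first pair and from 0 to 2 with 1 library left out. Genes called in 1b-/- mice went from 531 to 1829 (likelihood ratio test), 2144 (DESeq2), 1029 (no filter) and 5541 (all 11 libraries), and from 0 to 693 with 1 library left out, with 0 without WT replicate 1 and 192 without WT replicate 2; members called were 4 under the likelihood ratio test, DESeq2 and all 11 libraries, and 0 to 2 with 1 library left out. With sex as a covariate, signs turned for Npy (0.10) and Reln (-0.32) in 1b-/- mice, for Ebf3 (-0.36) and Zic4 (-0.38) in 1b+/- mice, and for the difference between genotypes in Lhx6 (-0.27) and Npy (0.22); with all 11 libraries Reln turned in 1b-/- mice (-0.00068). With 1 library left out, log2 fold changes in 1b-/- mice that changed sign ranged from -0.71 to 0.065 for Lhx6, -0.91 to 0.098 for Npy, -0.32 to 0.27 for Reln, -1.19 to 1.19 for Vip and -0.28 to 1.57 for Ebf3, and differences between genotypes from -0.40 to 0.40 for Lhx6, -0.65 to 0.34 for Npy, -0.54 to 0.071 for Reln and -0.95 to 1.44 for Vip. In 1b+/- mice no member changed sign, and genes of the other lists ranged from -0.36 to 0.51 (Ebf3), -0.38 to 0.92 (Zic4), -1.05 to 0.17 (Slc5a7), -0.92 to 1.57 (Prkcd) and -0.98 to 2.24 (Tnnt1). The causes were not tested. In the heterozygous round 1b+/- replicate 4 is the only female, and in the homozygous round 1b-/- replicate 1 is the only male. A term for sex is therefore nearly the same fit as leaving that mouse out, and the alternatives count both. RLE in place of TMM moved the median of all genes by less than 0.01. No paired analysis was possible because the labels give the groups no shared replicate numbers. Depth did not limit the members, which had at least 138 counts; 2 mice per genotype limited the 1b-/- comparison.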

Other observations

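Over the 7 libraries of the heterozygous round, log2 CPM of the members moved in 2 directions, given here as a description over mice that share a sequencing lane and include both genotypes. Gad1 went with Gad2 (Pearson r = 0.896), Lhx6 went with Sst (0.922), Vip (0.901) and Npy (0.783), and Vip went with Cck (0.878). Pvalb and Reln went together (0.854), and both went against Npy (-0.877 and -0.818) and Lhx6 (-0.661 and -0.723). Pvalb and Gad1 were nearly unrelated (0.0740), as were Calb2 and Reln (-0.0062).

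Among 11626 genes with a mean of at least 5 CPM in that round, the genes most like Gad1 were Rab11a and Ccndbp1 (both r = 0.977), those most like Pvalb were Dfna5 (0.981) and Pigq (0.976), and those most like Vip were Anp32a (0.985) and Ypel5 (0.979). With 7 libraries and this many genes, correlations of this size are the top of a long list.

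Cajal-Retzius cells transcribe Reln and Calb2. Of the 4 other genes of their list, Trp73, the transcription factor p73, was at 3.86, 4.62, 5.79 and 5.85 CPM in 1b+/- mice and at 4.17, 3.95 and 4.23 CPM in WT (adjusted p = 0.533), and at 4.43 and 9.15 CPM in 1b-/- mice against 1.26 and 1.78 CPM in WT (log2 fold change 2.15, adjusted p = 0.0702).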
